A study of Mus musculus with 3 samples.

Results

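The genes described here are 10 components and outputs of the NF-kB pathway, chosen by the gene name printed for each probe in the scanner files: the subunits Rela, Relb, Rel, Nfkb1 and Nfkb2, the inhibitors Nfkbia, Nfkbiz and Tnfaip3, and the cytokines Tnf and Il1b. They were represented by 14 of the 41174 probes and are 10 of the 27389 genes on the array. RNA came from MigA9 cells, a mouse myeloid line transformed by the homeobox factor Hoxa9 and grown with a share of GM-CSF-conditioned medium. Cells that received 2.5 µM DB818, a compound that binds the minor groove of DNA, for 6, 12 or 24 h were compared with untreated cells of the same line, which carry the same transforming gene. Each time had 1 two-colour array, with treated RNA in Cy5 and untreated RNA in Cy3 on every array, so a ratio at a single time had no replicate check and a dye effect of a probe was not balanced. The labels name a single transformed line, call the untreated cells not exposed and give them no time, and do not say whether 1 or several untreated preparations were hybridised.

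NF-kB is a family of dimeric transcription factors that share a DNA-binding domain, the Rel homology region. In resting cells the dimers are held in the cytoplasm by inhibitors of the IkB family, and kinases downstream of the receptors for TNF, IL-1 and microbial products mark these inhibitors for destruction. The released dimers then switch on inflammatory genes and, with them, their own inhibitors, so that several members of the pathway are also its targets. In myeloid cells the pathway is known for driving cytokine production and survival.

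The arrays carried usable signal for about the same number of genes at each time. At 6, 12 and 24 h 11447, 11475 and 11565 genes had a probe well above background in both channels, and 10956 had one on all arrays. All 10 myeloid markers looked for, among them Spi1, Cebpa, Csf2rb and Mpo, were well above background in the untreated channel of every array. Of the 5 B-cell and the 5 T-cell markers, 0 to 2 and 0 to 1 were so on an array, and 0 of them on all arrays; for the 4 erythroid and 5 fibroblast markers on the array the ranges were 0 to 2 and 0 to 1. In RNA of whole cultures, fewer cells of a type and less RNA per cell cannot be told apart. Repeated spots of 1 probe scattered by 0.046, 0.034 and 0.051 (SD of the log2 ratio) at 6, 12 and 24 h, which covers spotting and scanning only.

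The promoters of 7 of the 10 genes were matched by symbol in the RefSeq promoter table (GRCm38.p6), from 250 bases before to 50 bases after each start. Relb, Nfkb1 and Nfkbiz were not matched. The 10-base NF-kB consensus, searched on both strands with overlapping matches allowed, lay in 6 of the 10 promoters of these 7 genes, against 8.5% of all 32851 promoters in the table. Counted by gene, 4 of the 7 had a match (57.1%), against 9.6% of all genes in the table; Nfkb2 gave 3 of the 6 promoters, of which 2 overlap and share a match. The 9-base form GGGNNTTCC, which overlaps the consensus where both matched, lay in 3 of the 10, against 5.8%. The 140 bases before the start are shown for the 4 genes with a consensus match there, because these are pathway members that carry the sequence that the family binds. They run 5′ to 3′ towards the start, and capitals mark the matches on either strand. A match describes the letters and is not evidence of binding.
Rel (chr11:23770970-23771109, minus strand): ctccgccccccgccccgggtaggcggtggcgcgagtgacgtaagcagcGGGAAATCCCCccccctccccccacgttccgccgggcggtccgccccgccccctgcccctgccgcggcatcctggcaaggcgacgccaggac
Nfkb2 (chr19:46304597-46304736, plus strand): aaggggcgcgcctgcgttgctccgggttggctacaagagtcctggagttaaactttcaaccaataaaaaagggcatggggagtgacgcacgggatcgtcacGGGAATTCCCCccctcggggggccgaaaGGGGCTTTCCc
Nfkbia (chr12:55492648-55492787, minus strand): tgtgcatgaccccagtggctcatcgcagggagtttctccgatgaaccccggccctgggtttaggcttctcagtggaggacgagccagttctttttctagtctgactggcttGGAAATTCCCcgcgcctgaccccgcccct
Tnfaip3 (chr10:19015411-19015550, minus strand): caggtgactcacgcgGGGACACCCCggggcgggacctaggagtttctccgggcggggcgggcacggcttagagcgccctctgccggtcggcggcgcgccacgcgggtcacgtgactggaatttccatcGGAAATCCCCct
In Nfkb2 the capitals nearest to the start read GGGGCTTTCC, and in Nfkbia the minus strand of the match reads GGGAATTTCC. In the promoters of Rela, Tnf and Il1b these letters were not found.

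The brightness of the probes set what could be measured. Nfkbia had the highest spot signals, with mean Cy3 intensities of 1260.7, 1296.7 and 1362.7 at 6, 12 and 24 h against local backgrounds of 41, 42 and 43. The brighter of the 2 Rela probes read 507.8, 543.8 and 525.0 in Cy3. All other member probes lay between 56.3 and 211.0 in Cy3, where the median of all probes was 78.2, 79.2 and 79.3. The probe of Rel was not well above background in either channel on any array, with Cy3 signals of 76.2, 78.1 and 75.4. The probe of Il1b was likewise not well above background, except in the treated channel at 24 h, and that of Nfkbiz missed the mark in the untreated channel at 12 h. This left 7 genes measured on all arrays and Nfkbiz on 2 of 3. Probe brightness is not a level that can be set against another probe's.

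**Figure D1:**
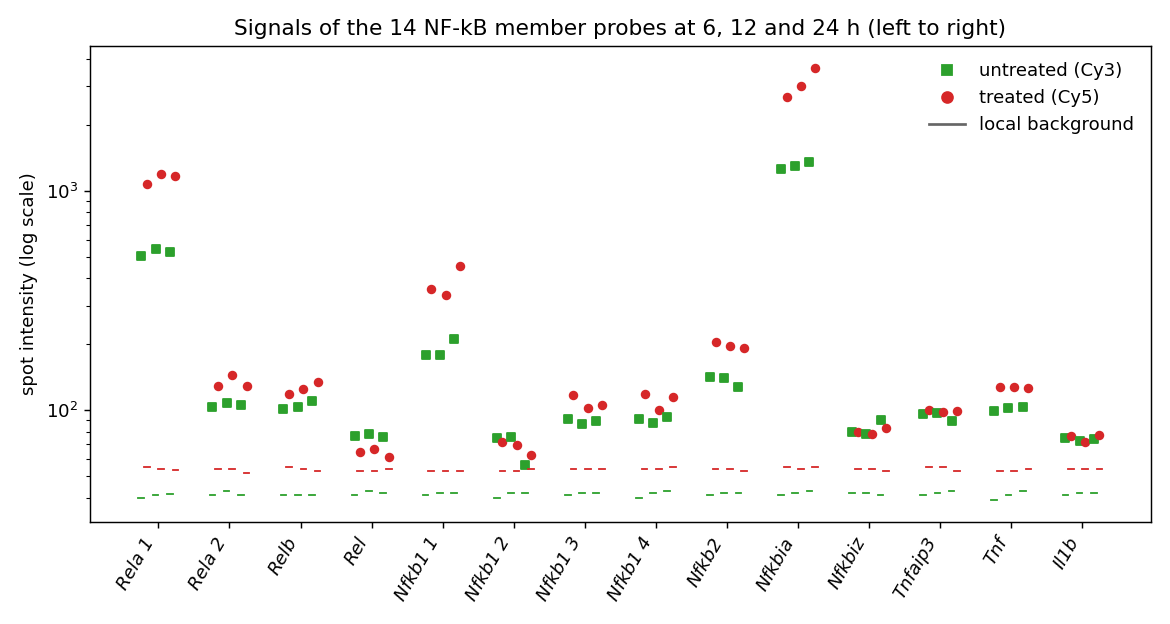
Mean spot intensity (log scale) of the 14 probes of the 10 genes, with untreated cells in Cy3 (squares) and treated cells in Cy5 (circles), at 6, 12 and 24 h from left to right, and the local background of each spot as short lines; numbered probes belong to 1 gene. Nfkbia and the first Rela probe stand far above the background, while Rel, Nfkbiz, Tnfaip3, Il1b and the second Nfkb1 probe lie between 56.3 and 100.7 in both channels.

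None of the measured members reached a log2 ratio of 0.32 in either direction at any time with the settings used here. At 6, 12 and 24 h 0 of 8, 0 of 7 and 0 of 8 measured members were past it on the higher side, where 1.79, 1.39 and 2.72% of all genes were, and 0 on the lower side, where 0.725, 0.723 and 1.46% of all genes were. Those shares are small, so a count of 0 is not apart from them. At a log2 ratio of 0.20, 0 members were past it on the higher side at 6, 12 and 24 h, where 7.49, 6.59 and 9.84% of all genes were. On the lower side there were 0 at 6 h, where Tnfaip3 lay just inside, 1 at 12 h (Tnfaip3) and 1 at 24 h (Nfkbiz), where 2.98, 2.85 and 4.4% of all genes were. The members' log2 ratios ran from -0.20 to 0.11 at 6 h, from -0.23 to 0.09 at 12 h and from -0.22 to 0.14 at 24 h. Their medians were -0.09, -0.04 and -0.03, beside 0.03, 0.02 and 0.03 for all genes measured.

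Over the 3 times, 1 of the 7 members tested rose (Nfkb1) and 1 fell (Relb), and 5 did not pass. The test asked whether the mean log2 ratio differed from 0 (limma across 10956 genes, Benjamini-Hochberg adjusted p under 0.05), and 20.1% of all genes rose and 7.86% fell by it, so 27.9% passed in either direction. The count of 2 in 7 is therefore near the background. The times stand in for replicates in this test, and neither a constant dye effect nor a deviation of the untreated RNA enters its error.

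Relb, the subunit that pairs with the product of Nfkb2 in the slower, non-canonical branch, was lower on every array. Its log2 ratio was -0.12 at 6 h, -0.10 at 12 h and -0.16 at 24 h. The mean was -0.13 ± 0.03 (SE, n = 3 arrays, limma adjusted p = 0.024), with a 95% interval of -0.20 to -0.05, and 6.70% of genes had a lower mean. From Agilent's processed signals, the scanner software's own corrected values, the mean was -0.46 ± 0.05, also past the threshold (adjusted p = 0.027). The authors' deposited table gives log2 ratios of -0.57 ± 0.26, -0.44 ± 0.25 and -0.37 ± 0.25 for this spot at 6, 12 and 24 h, with the error of the scanner's model. The scanner's p-values for them were 0.0317, 0.0722 and 0.135. These are the same ratios as those behind the mean of the processed signals, and not a separate measurement. The sign held in 13 of 13 alternatives. It could not turn in those that left out or weighted arrays, as every ratio of its single probe was negative. Nor could it turn in those that changed the filter, the probe choice or the eBayes fit. With arrays centred on their median and no loess, 1 of the 13, the mean was -0.57, but dim genes were then lower as a whole. With all genes in 10 classes of brightness, class 1 the dimmest, class 2, which holds Relb, had a median of -0.48. The adjusted p was 0.14 without the 12 h array and 0.080 without the 24 h array, at means of -0.14 and -0.11.

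Nfkb1, the gene of the p105 precursor and the p50 subunit, was higher on every array, by a log2 ratio of 0.11, 0.09 and 0.10. The mean was 0.10 ± 0.03 (SE, n = 3 arrays, limma adjusted p = 0.045), and 75.2% of genes had a lower mean. It rested on 3 probes, which were all above 0 at every time with the settings used here. The brightest of them read 0.16, 0.11 and 0.19 at 6, 12 and 24 h, and the 2 dimmer ones lay between 0.05 and 0.10. Leaving out any 1 array ended the call, at means of 0.09, 0.10 and 0.10 without the 6, 12 and 24 h array (adjusted p = 0.080, 0.24 and 0.10). Agilent's processed signals ended it too (0.13, adjusted p = 0.12). With median centring the mean turned to -0.29, where class 3, which holds Nfkb1 by the average brightness of its 3 probes, had a median of -0.32.

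Rela, the gene of the p65 subunit that carries the main activation domain of the canonical dimer, showed no change that passed. Its log2 ratios were -0.05, 0.03 and -0.05, with a mean of -0.02 ± 0.03 (limma adjusted p = 0.61) and a 95% interval of -0.10 to 0.05. The brighter probe read -0.05, 0.04 and 0.01, and the dimmer one -0.05, 0.02 and -0.11, so the probes were within 0.02 of each other at 6 and 12 h and apart by over 0.1 at 24 h. With median centring the mean was -0.11 (adjusted p = 0.033), against a median of 0.06 in its class of brightness. That class was set by the average of a bright and a dim probe, with untreated log2 signals of 9.576 and 6.755 at 6 h. It matches neither probe, so the mean cannot be read against it.

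Nfkb2, the gene of the p100 precursor and the p52 subunit, was lower at the earlier times and close to 0 at 24 h. Its log2 ratios were -0.13, -0.15 and -0.02, and the mean of -0.10 ± 0.04 did not pass (limma adjusted p = 0.080). It passed without the 24 h array (-0.14, adjusted p = 0.042), with array weights (-0.13, adjusted p = 0.0017) and with median centring (-0.29, adjusted p = 0.00037), where its class of brightness had a median of -0.17. From Agilent's processed signals the ratios at 6, 12 and 24 h were -0.27, -0.28 and -0.06.

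Rel, the gene of the c-Rel subunit, could not be measured, and no fold is given for it. In the authors' deposited table its log2 ratio is set to 0 on every array.

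Among the inhibitors, Nfkbia, which encodes IkB-alpha, the inhibitor that NF-kB itself resynthesises after activation, had a ratio that went from below to above 1. Its log2 ratio was -0.17 at 6 h, 0.02 at 12 h and 0.14 at 24 h. This probe is in the brightest class, and the processed signals of Agilent gave nearly the same ratios, -0.20, 0.01 and 0.13. The scanner's errors for them in the authors' deposited table were 0.21, 0.20 and 0.20, as large as the ratios or larger. The change from 6 to 24 h was 0.31, in which a constant dye effect cancels, but 1 array at each time allows no test of it. The mean over the times was -0.01 ± 0.06 (limma adjusted p = 0.94), with a 95% interval of -0.14 to 0.13. With median centring the mean was 0.34 (adjusted p = 0.0022), where the brightest class of genes had a median of 0.41.

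Tnfaip3 encodes A20, a ubiquitin-editing enzyme that shuts the pathway down. Its log2 ratio was -0.20 at 6 h, -0.23 at 12 h and 0.00 at 24 h, so that 2 of 3 arrays were lower and the last was at 1. The mean of -0.14 ± 0.05 did not pass (limma adjusted p = 0.069). It passed without the 24 h array (-0.21, adjusted p = 0.014), without background subtraction (-0.13, adjusted p = 0.049), with array weights (-0.20, adjusted p = 0.00084) and with median centring (-0.76, adjusted p = 2.7e-05), so in 4 of 13 alternatives. With median centring the dimmest class of genes had a median of -0.67. This probe lay in that class, and its ratios depended on how dim spots were treated. In the authors' deposited table they were -0.55 ± 0.33, -0.63 ± 0.32 and -0.04 ± 0.38 (log2, error of the scanner's model). Tnfaip3 had the largest ratio of any member measured on all arrays, and the genes nearest to it over the 3 ratios were Pomt1 (distance 0.045), Slc35b1 (0.055), a transcript listed by an Ensembl identifier, Cd8b1 (0.061) and Mdk (0.067). Their ratios at 24 h lay between -0.03 and 0.05, and at 6 and 12 h between -0.26 and -0.17.

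Nfkbiz encodes IkB-zeta, a nuclear member of the IkB family. It was measured at 6 h (0.06) and 24 h (-0.22). At 12 h the untreated signal was not well above background. The spot's log2 ratio to that signal was 0.10, which is not a lower bound, and the authors' deposited table gives 0.26 ± 0.69 there. At this brightness the direction at 6 h depended on the processing: Agilent's processed signals gave -0.20 there and -0.66 at 24 h. The authors' deposited table gives an error of 0.66 at 6 h and 0.50 at 24 h for this spot.

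**Figure D2:**
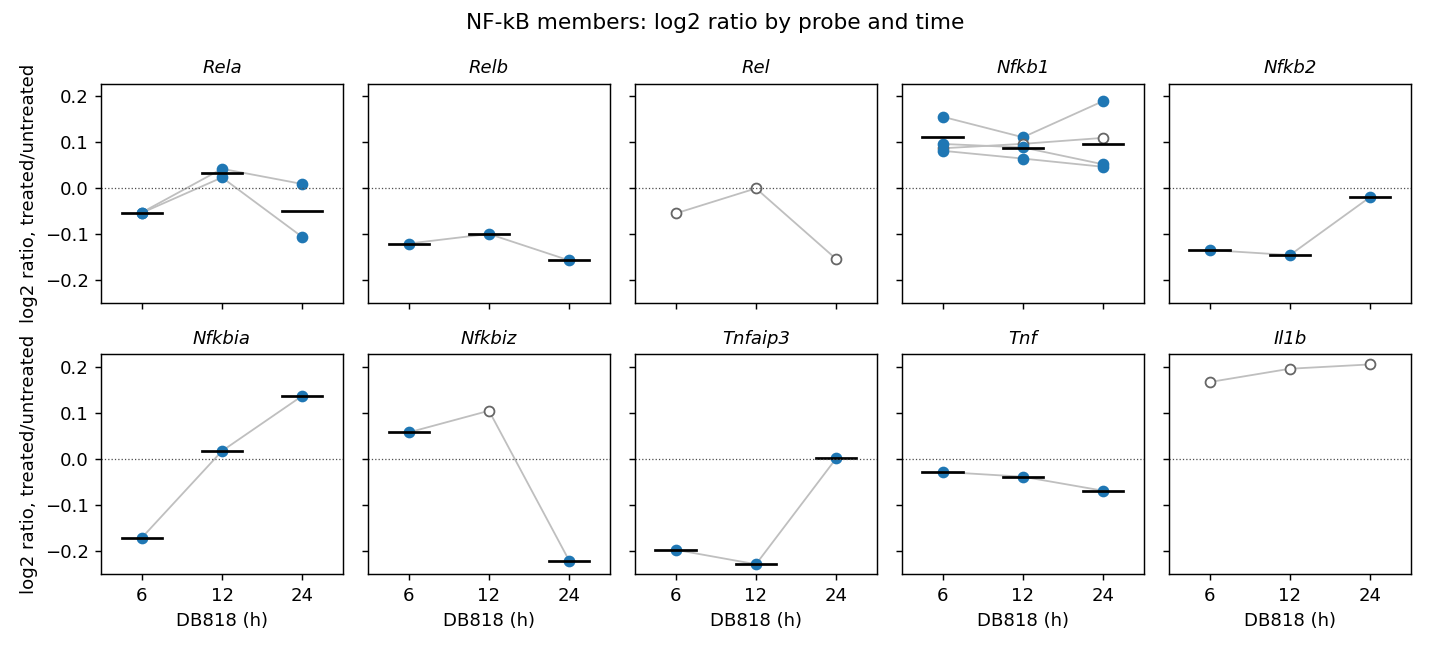
Log2 ratio of treated to untreated cells (vertical axis) at 6, 12 and 24 h of DB818 for each member. Each point is 1 probe on 1 array, filled where it was well above background in both channels and open where it was not, grey lines join a probe, and black bars are the gene's value; Relb lies below 0 and Nfkb1 above 0 at every time, and Nfkbia runs from -0.17 to 0.14.

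The cytokines gave little signal. Tnf, the gene of tumour necrosis factor, had log2 ratios of -0.03, -0.04 and -0.07, all just below 0, and a mean of -0.05 ± 0.03 (limma adjusted p = 0.28) with a 95% interval of -0.12 to 0.02. From Agilent's processed signals the mean was -0.23 ± 0.07 and did not pass (adjusted p = 0.086). With median centring it passed at -0.50 (adjusted p = 4.8e-05), where its class of brightness had a median of -0.48. Il1b, the gene of interleukin-1 beta, was not measured in both channels on any array. At 24 h its treated signal stood 0.21 above its own untreated signal on the log2 scale. That untreated signal was not well above background, so this is not a lower bound, and it is open to dye bias. Without the filter on dim probes Il1b stood at 0.19 ± 0.02 (limma adjusted p = 0.011), while its untreated signal was not well above background on any array, and the authors' deposited table gives log2 ratios of 1.14 ± 1.17, 0.22 ± 1.46 and 1.39 ± 1.11, whose errors are about as large as the values or larger.

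The signals at 6 and 24 h were also compared within each channel. After the brightness of the arrays was equalised, the treated signal of Nfkbia was 10.80, 10.90 and 11.16 (log2) at 6, 12 and 24 h and the untreated one 10.97, 10.89 and 11.03, a gain of 0.36 in treated and 0.06 in untreated cells. For Tnfaip3 the treated signal hardly moved (6.36, 6.32 and 6.37), while the untreated one read 6.56, 6.55 and 6.37, a change of -0.20 from 6 to 24 h against 0.00 in treated cells. Nfkbiz was similar with the opposite direction: the untreated signal was 0.29 higher at 24 h than at 6 h and the treated one 0.02 higher. Nfkb2 fell by 0.22 in untreated and by 0.11 in treated cells, and Relb was 0.19 and 0.15 higher in the respective channels. The brightest Nfkb1 probe was 0.24 higher at 24 h in untreated and 0.27 higher in treated cells. The dimmer measured probes of this gene went the other way, by -0.11 and -0.04 in untreated and by -0.16 and -0.07 in treated cells. In these single spots the shift of the ratio of Nfkbia lay in the treated channel, and those of Tnfaip3 and Nfkbiz in the untreated channel. Tnfaip3 and Nfkbiz have dim probes, and the untreated signals of Nfkb2, Relb and Nfkb1 moved by about as much. The side is therefore not settled for these dim probes. None of these channel differences had a replicate, and the labels give the untreated cells no harvest time.

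**Figure D3:**
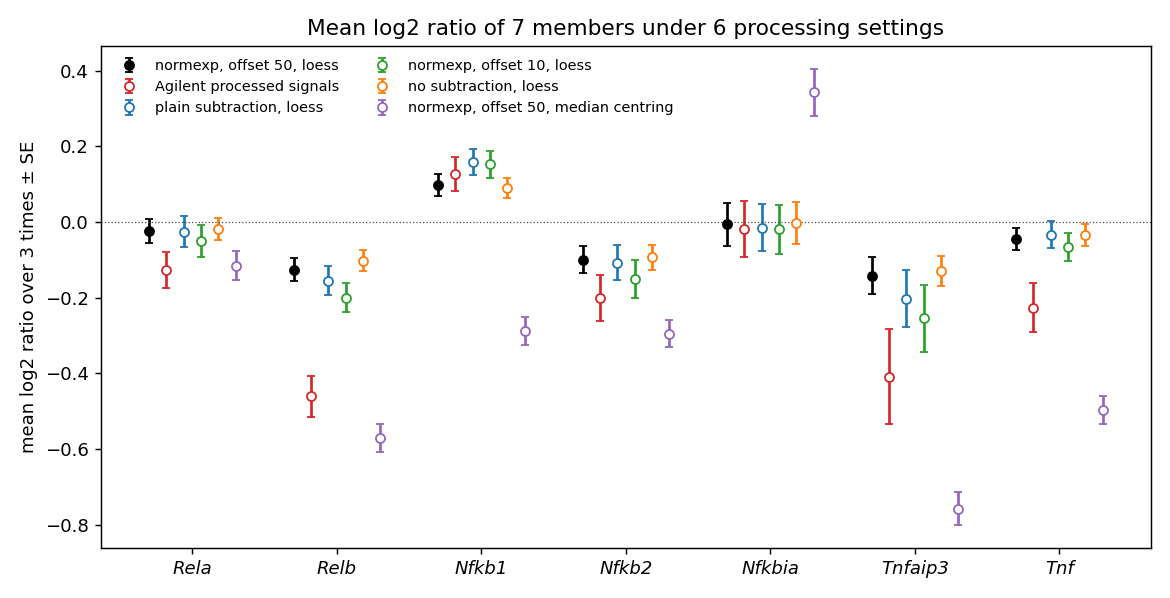
Mean log2 ratio over the 3 times (vertical axis, bars are the standard error of the limma fit) for the 7 members measured on all arrays, under 6 ways of background correction and normalisation. Relb lies below 0 in all 6, from -0.57 (median centring, where its class of brightness had a median of -0.48) to -0.10, while Nfkb1 and Nfkbia change sign with median centring (-0.29 and 0.34).

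The rest of the pathway was described by 4 lists. Of 101 genes, 75 were measured on all arrays, and 18 rose, 8 fell and 49 did not pass, so 34.7% passed where 27.9% of all genes did. The median of the mean log2 ratios was 0.05, beside 0.03 for all genes. Most of the changes were small: the 75 means lay between -0.23 and 0.34, and the central 90% of all genes, from the 5th to the 95th percentile, between -0.15 and 0.22. The alternatives were run for 21 called genes, up to 6 from each list, and 2 of them, Traf3 and Gadd45b, kept their sign and their call in all 13. The call ended for 17 without the 12 h array, for 12 with Agilent's processed signals, for 10 without the 24 h array, for 7 without the filter on dim probes and for 5 with an offset of 10. With median centring 11 turned sign and 1 more lost its call. Bcl3, Icam1, Cd44, Ier3 and Slc2a6, named below as well, were not among the 21.

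Receptors and adaptors bring the signal from the membrane. Of 19 measured genes 3 rose, 1 fell and 15 did not pass, with a median of 0.05. The share called in either direction was 21.1%, below the 27.9% of all genes. Traf3, an adaptor that keeps the NF-kB-inducing kinase low in resting cells, rose with log2 ratios of 0.28, 0.23 and 0.25 (mean 0.25 ± 0.03, limma adjusted p = 0.0047). Myd88, the adaptor of Toll-like and IL-1 receptors, rose from 0.08 at 6 h to 0.27 and 0.30 at 12 and 24 h (mean 0.21 ± 0.05, adjusted p = 0.019), but did not pass without the 12 h (0.19) or the 24 h array (0.17) or with Agilent's processed signals (0.20, adjusted p = 0.096). Il1rn, the secreted antagonist of the IL-1 receptor, rose (0.14 ± 0.04), and Irak3, a kinase-like protein that dampens this receptor family, fell (-0.15 ± 0.03). Neither passed without the 12 h array (0.17 and -0.16), nor Il1rn without the 24 h array (0.10), and with median centring Il1rn stood at -0.077. Il1rn did not pass with Agilent's processed signals (0.085), and Irak3 did not pass without the filter on dim probes (-0.076). The receptors Tnfrsf1a (-0.02 ± 0.03) and Tnfrsf1b (0.12 ± 0.04) did not pass.

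Of the kinases and the ubiquitin machinery that carry the signal to the inhibitors, 4 of 19 measured genes rose, 1 fell and 14 did not pass, with a median of 0.05. The share called was 26.3%, near the 27.9% of all genes. Map3k7, which encodes the kinase TAK1, had ratios of 0.34, 0.13 and 0.19 (mean 0.22 ± 0.04, limma adjusted p = 0.016). The paracaspase Malt1 (0.18 ± 0.03), the IkB kinase relative Ikbke (0.18 ± 0.03) and Ikbkb (0.12 ± 0.03), the catalytic IkB kinase of the canonical branch, rose as well. Btrc, the ligase subunit that recognises phosphorylated IkB, fell (-0.10 ± 0.03). With Agilent's processed signals Map3k7 (0.39, adjusted p = 0.096), Ikbke (0.16) and Ikbkb (0.068) did not pass. Ikbkb lost its call in 6 of the 13 alternatives. With median centring Map3k7, Malt1 and Ikbke turned to -0.43, -0.20 and -0.028. Without the 12 h array Malt1 (0.18), Ikbke (0.19), Ikbkb (0.09) and Btrc (-0.09) were no longer past the threshold, nor were Ikbkb (0.11) and Btrc (-0.12) without the 24 h array, or Btrc without the 6 h array (-0.10). The other subunits of the IkB kinase, Chuk (-0.02 ± 0.03) and Ikbkg (0.12 ± 0.04), and the NF-kB-inducing kinase Map3k14 (-0.04 ± 0.03) did not pass.

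Other inhibitors made up the third list, of which 5 of 16 measured genes rose, 2 fell and 9 did not pass, with a median of 0.06. The share called was 43.8%, beside 27.9% of all genes. Nfkbib (0.18 ± 0.03, limma adjusted p = 0.0086) and Nfkbie (0.11 ± 0.03), which encode IkB-beta and IkB-epsilon, rose, as did Tnip2 (0.18 ± 0.04), a partner of A20, the deubiquitinase Cyld (0.17 ± 0.04) and Nkiras1 (0.11 ± 0.03), a small GTPase-like protein that binds IkB. Tnip1, another partner of A20, fell (-0.11 ± 0.03), and so did Bcl3, a nuclear IkB relative (-0.10 ± 0.03). Without the 12 h array Nfkbib, Nfkbie, Tnip2, Cyld, Nkiras1 and Tnip1 did not pass, at means of 0.17, 0.12, 0.19, 0.18, 0.11 and -0.12. Without the 24 h array Nfkbie (0.09), Cyld (0.13), Nkiras1 (0.10) and Tnip1 (-0.11) did not pass. With Agilent's processed signals Nfkbib (0.16, adjusted p = 0.066), Nfkbie (0.073), Tnip2 (0.11) and Tnip1 (-0.16) did not pass, nor did Nkiras1 without the filter on dim probes (0.078). With median centring Nfkbie stood at 0.040 and did not pass, and Cyld, Nkiras1 and Tnip1 turned to -0.16, -0.19 and 0.11.

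Among genes reported to be switched on by NF-kB, 6 of 21 measured rose, 4 fell and 11 did not pass, with a median of 0.05. That is 47.6% called in either direction, beside 27.9% of all genes (20.1% rose and 7.86% fell). Gadd45b, a stress-response gene, had the highest mean, with ratios of 0.27, 0.35 and 0.39 (0.34 ± 0.03, limma adjusted p = 0.0039). The survival gene Bcl2l1 (0.20 ± 0.03), the chemokines Cxcl10 (0.25 ± 0.04) and Ccl2 (0.17 ± 0.03) and the lymphotoxin subunit Ltb (0.24 ± 0.07, adjusted p = 0.049) rose, as did the adhesion molecule Icam1 (0.14 ± 0.04). Ltb went from 0.06 at 6 h to 0.19 and 0.49, and did not pass without the 12 h or the 24 h array (0.27 and 0.12). Vcam1, an adhesion molecule for leukocytes, fell (-0.23 ± 0.07), from -0.02 at 6 h to -0.32 and -0.36, and did not pass either without the 12 h or the 24 h array (-0.19 and -0.17). Of the 13 alternatives, Ltb lost its call in 7 and turned sign in 1, and Vcam1 lost its call in 6. The adhesion receptor Cd44 (-0.16), the early response gene Ier3 (-0.14) and the sugar transporter Slc2a6 (-0.12) were the other genes that fell. Bcl2l1 (0.19) and Ccl2 (0.15) did not pass when the 12 h array was left out. With Agilent's processed signals Ltb (0.47, adjusted p = 0.083), Vcam1 (-0.29, adjusted p = 0.21) and Ccl2 (0.38, adjusted p = 0.14) did not pass, and Bcl2l1 did not pass without the filter on dim probes (0.055). With median centring Cxcl10, Ltb, Bcl2l1 and Ccl2 turned to -0.30, -0.023, -0.18 and -0.26.

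**Figure D4:**
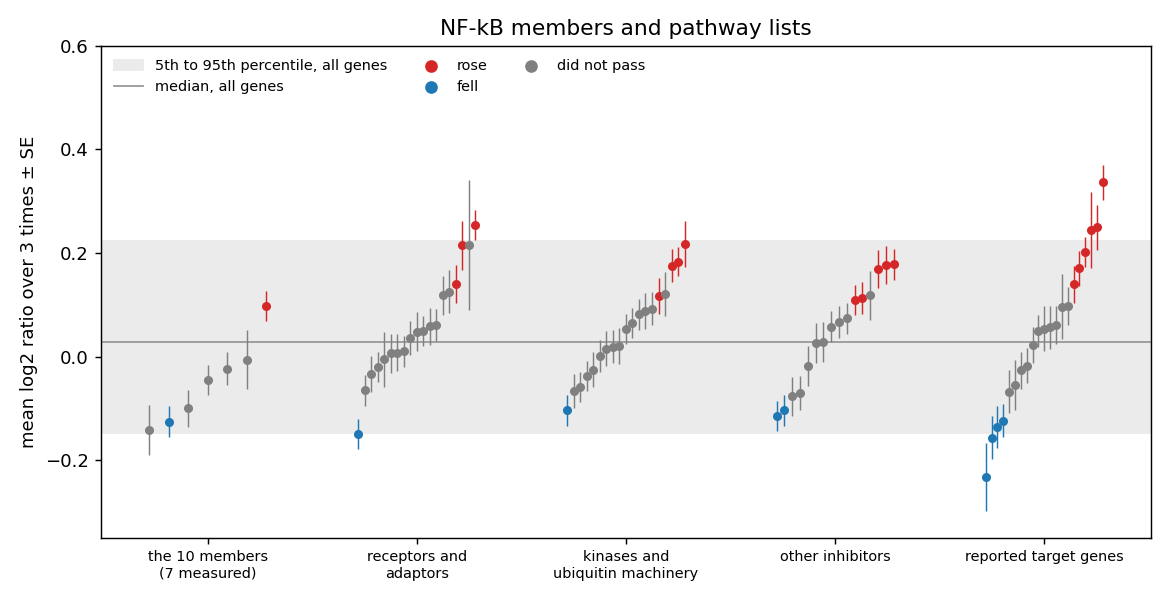
Mean log2 ratio over the 3 times (vertical axis, bars are the standard error of the limma fit) for the members measured on all arrays and for the 4 pathway lists, 1 point for each gene in order of its value, coloured where the limma test passed. The grey band spans the 5th to the 95th percentile of all 10956 genes (-0.15 to 0.22) and the line is their median (0.03); Gadd45b is the highest point at 0.34 and Vcam1 the lowest at -0.23.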

How the data were processed

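Agilent mouse arrays with 2 colours were used, 1 array at each of the 3 times. The authors extracted spots with Agilent Feature Extraction 9.1.3.1, per the submitters' processing notes. In the deposited scanner files each spot has a foreground and a local background intensity in Cy3 and Cy5, and the scanner's log10 ratio with its error and p-value, per the file headers. A value table that the authors deposited repeats these log10 ratios (largest difference 0).

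Here background was corrected by normexp on mean foreground and median background (offset 50), followed by within-array loess, in limma 3.58.1 (R 4.3.3; tables and plots with Python 3.11.15 and matplotlib 3.10.9). Control and outlier spots (37, 36 and 52 outliers) were left out. Unsaturated probes that were well above background in Cy3 and in Cy5 were averaged for each gene. Genes were named from a RefSeq table by accession, symbol or synonym, with the file's gene name kept for members and for 8080 unmatched probes. The offset draws ratios of dim probes toward 1. Where 1 channel alone was well above background, the ratio printed is to the probe's own other signal and is not a bound. Channel levels used Aquantile scaling.

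The mean over the times was tested with an intercept and eBayes (2 residual and 4.82 prior degrees of freedom) on 10956 genes, adjusted p under 0.05. Each array served as 1 sample, and p-values rest only on the spread between these 3 arrays. That spread is the gene's own, drawn by the prior toward that of all genes. The test was run on simulated data first. Those data held no dye effect and no trend with brightness, so that run does not cover either. Members, lists and tests were chosen with earlier results of these data known. All members were named, with up to 6 called genes of each list with the largest means and the 5 genes nearest to the member with the largest ratio; Bcl3, Icam1, Cd44, Ier3, Slc2a6 and the uncalled receptors and kinases were added after their values were seen. Alternatives changed the background correction, normalisation, filter, probe choice, fold and weights or left out an array.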

Additional observations from a re-analysis of the deposited data

Results flagged for a closer look

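The ratio of Nfkbia was below 1 at 6 h (-0.17) and above 1 at 24 h (0.14), a change of 0.31 on the log2 scale. The scanner's own errors in the authors' deposited table are larger than its values there: -0.20 ± 0.21 at 6 h (p = 0.34) and 0.13 ± 0.20 at 24 h (p = 0.52). The ratio of Nfkbiz had opposite signs at the same times (0.06 and -0.22), a change of -0.28. Each time had 1 array, so these differences between times were not tested. For Nfkbia the change was 0.33 from Agilent's processed signals and 0.32 with median centring. For Nfkbiz it was -0.46 and -0.15.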

How the results depend on the processing

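No paired analysis was possible because each time has 1 array. Leaving out an array leaves 2 arrays in the test. Then 425 to 2304 genes rose and 148 to 968 fell, 0 members rose, 0 to 2 fell, and 4 to 23 pathway genes rose and 0 to 7 fell (with all arrays 2199, 861, 1, 1, 18 and 8). The lowest counts came without the 12 h array. With array weights 4188 of 10956 genes rose and 2125 fell. Then 3 members fell (Relb, Nfkb2 and Tnfaip3) and 1 rose, and 34 pathway genes rose and 15 fell. With the signals that Agilent's software had processed, 590 genes rose and 640 fell, so 11.2% of 10956 genes passed. Then 0 members and 8 pathway genes rose, and 1 member and 2 pathway genes fell. At 6, 12 and 24 h 2, 2 and 3 members were past a log2 ratio of -0.32, where 7.11, 6.49 and 8.60% of all genes were. With normexp at an offset of 10, 1 member was so at each time (2.18, 2.14 and 3.23% of all genes), and with plain subtraction 1 at 12 h and 1 at 24 h (1.4 and 2.65%). At a threshold of 0.20 the counts of lower members were 1 at 12 h and 1 at 24 h. Without background subtraction 2 members fell (847 of 10956 genes), and without the filter on dim probes 2 rose (Nfkb1 and Il1b; 2088 of 27311 genes).

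With median centring 4140 genes rose and 4483 fell, so 78.7% of 10956 genes passed. Of the members 6 fell and 1 rose, and 30 pathway genes rose and 32 fell. At 6, 12 and 24 h 4, 5 and 4 members were past -0.32 (29.2, 28.1 and 30% of all genes), and 1 was past 0.32 at 12 h and 1 at 24 h (11.8 and 15.7%). With the main settings the medians of 10 classes of brightness lay between -0.01, in the brightest, and 0.06, in class 5. The test against 0 did not take these medians off. With median centring ratios followed brightness far more, with medians of -0.67 in the dimmest and 0.41 in the brightest class. In that setting these means turned sign: Nfkb1 (-0.29), Nfkbia (0.34), Map3k7 (-0.43), Malt1 (-0.20), Ikbke (-0.028), Cyld (-0.16), Tnip1 (0.11), Nkiras1 (-0.19), Il1rn (-0.077), Cxcl10 (-0.30), Ltb (-0.023), Bcl2l1 (-0.18) and Ccl2 (-0.26). Among members that did not pass, Nfkbia was at 0.077 without the 6 h array and 0.014 with array weights, and Rela at 0.018 with array weights. The low signal of most members limits how well their fold changes are known.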
